A study of Mus musculus with 3 samples.

Results

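A set of 10 genes of the TGF-beta and activin system were followed through cultured mouse cells on the way from stem cells to beating cardiac bodies. They were the ligand genes Tgfb1, Tgfb2, Tgfb3 and Inhba, the receptor genes Tgfbr1, Tgfbr2 and Tgfbr3, the follistatin genes Fst and Fstl1, and the matrix gene Tgfbi. They were chosen by symbol from the 27886 genes listed in at least 1 of the tables. All 10 were listed in the cardiac precursor cell cultures and the cardiac bodies, and 8 of them in the embryonic stem cells, where Tgfb3 and Inhba had no entry.

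The cells were male and came from F1 stem cells of a C57BL/6 x CAST/EiJ cross. The stem cells (mESC, 215 cells) grew without feeders in serum with LIF and inhibitors of MEK and GSK3. For the cardiac precursor cell cultures (CPCC, 175 cells), embryoid bodies were first formed in serum medium with ascorbic acid. They were then dissociated, and the cells were passaged in serum medium with EGF and Fgf2. For the cardiac bodies (CB, 232 cells), floating aggregates were kept in serum medium with ascorbic acid, and bodies that beat were picked by hand. No medium was described with an added TGF-beta or activin, and serum carries such ligands. The study worked with several stem cell clones, but nothing ties a clone to a cell, and each culture is 1 sample. No difference between cultures therefore has a replicate check, and no test between them was made. Libraries had been sequenced in pools, 3 for mESC, 2 for CPCC and 3 for CB, and each pool held cells of 1 culture. Pools are not known to be separate cultures, so their values are printed as a description of spread.

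Single cells were captured on microfluidic chips (Fluidigm C1), and full-length cDNA was sequenced. The median depth was 1528316 counts per cell in mESC, 1437414 in CPCC and 1397869 in CB, with single cells between 4 and 8105511. The labels were checked against marker lists. All 10 pluripotency markers were detected in most mESC cells, and 7 of 10 in most CPCC cells, which in addition held smooth muscle markers (5 of 7 in most cells) and epithelial markers (5 of 8). The CB label names mature cardiac cells, but none of 10 cardiomyocyte markers was detected in most CB cells, and the median share was 7.11%. Fibroblast markers were detected in most CB cells for 7 of 9 genes. Macrophage markers separated the CPCC pools, with a summed level of 16.5 CPM (counts scaled to a total of 1000000) in pool 1 and 4652 CPM in pool 2.

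The 3 TGF-beta ligands are made as latent precursors that are stored in the matrix and signal, once released, through the kinase receptors encoded by Tgfbr2 and Tgfbr1 to the SMAD2 and SMAD3 proteins. Tgfbr3 encodes betaglycan, a co-receptor that binds TGF-beta2 and inhibin. Inhba encodes the subunit of activin A, which uses other receptors to reach the same SMAD proteins and is bound and blocked by follistatin, the product of Fst. Fstl1 encodes a secreted glycoprotein with a follistatin domain, and Tgfbi a matrix protein induced by TGF-beta. In the developing heart the pathway is known for its part in valve cushion formation, and in mesenchymal cells for the induction of smooth muscle actin, the product of Acta2.

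Promoter windows were available for 7 of the 10 genes (8 windows, RefSeq on GRCm38.p6), and none were given for Tgfb3, Tgfbr3 and Fst. The 250 bases before the start of 3 ligand genes are shown because these ligands differed in which cells carried them. Tgfb2 and Inhba followed Acta2 most closely over CPCC cells, and Tgfb1 did not. The capitals mark TATAAA (the TATA box) in Tgfb2 and Inhba, CAGAC (a SMAD-binding sequence) in Tgfb2, and GGGCGG (the GC box) in Tgfb1, each on either strand. The windows lie at chr1:186705990-186706239 on the minus strand for Tgfb2, chr13:16011601-16011850 on the plus strand for Inhba, and chr7:25686752-25687001 on the plus strand for Tgfb1.
Tgfb2: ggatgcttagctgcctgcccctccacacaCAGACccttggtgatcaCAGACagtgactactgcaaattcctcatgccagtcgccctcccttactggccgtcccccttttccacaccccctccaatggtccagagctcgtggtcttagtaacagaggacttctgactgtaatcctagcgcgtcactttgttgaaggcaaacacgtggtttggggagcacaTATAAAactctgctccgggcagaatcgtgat
Inhba: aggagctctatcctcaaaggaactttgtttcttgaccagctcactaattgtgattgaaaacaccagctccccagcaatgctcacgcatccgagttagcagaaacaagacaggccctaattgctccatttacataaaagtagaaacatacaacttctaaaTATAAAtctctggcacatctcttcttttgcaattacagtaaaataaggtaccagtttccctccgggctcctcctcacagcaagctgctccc
Tgfb1: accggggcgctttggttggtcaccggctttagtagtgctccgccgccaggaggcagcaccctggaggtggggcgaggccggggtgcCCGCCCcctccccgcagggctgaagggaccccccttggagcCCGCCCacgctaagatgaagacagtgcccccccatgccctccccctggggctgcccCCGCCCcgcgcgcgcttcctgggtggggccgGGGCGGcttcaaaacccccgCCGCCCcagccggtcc

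Tgfb2 had TATAAA 31 bases and CAGAC 221 and 204 bases before its start. Inhba had TATAAA 91 bases before its start and no CAGAC in the window. Tgfb1 had GGGCGG 36 bases before its start on the same strand and 4 more on the opposite strand, 164, 123, 67 and 16 bases before it, and neither of the other motifs. On both strands, TATAAA was found in 12.4% of all 32851 windows of 250 bases, CAGAC in 42.2% and GGGCGG in 32.7%. Of the other 4 genes, Fstl1 had 2 GGGCGG matches (46 and 22 bases before the start), Tgfbr2 had CAGAC 160 bases before it, Tgfbi had CAGAC 239 and 85 bases before it on the opposite strand with GGGCGG 124 bases before it, and Tgfbr1 had GGGCGG in 1 window and CAGAC in the other. TGACTCA (4.46% of all windows), GGAATG (12.6%) and TGACGTCA (1.55%) were searched as well and found in none of the 8 windows. A match is a run of letters and no evidence of binding.

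Tgfb1 and Inhba had their highest level in CPCC and the other 8 genes in CB. This split was not made over all genes, so it is not read as particular to these genes. Between CB and CPCC the pools were apart only for Tgfbr2 and Tgfbr3. Levels are CPM of the counts summed over all cells of a culture, and a culture was called higher or lower where the log2 ratio of (CPM + 1) reached 1 in size. CPCC exceeded mESC for 7 of the 8 genes listed in both, against 13.4% of all 20272 genes, and was lower for none (6.38% of all genes). CB exceeded mESC for 8 of 8 (24.9% of 19855 genes) and was lower for none (11.3%). Between CB and CPCC, 2 of 10 genes were higher in CB (17% of 20995 genes) and none was lower (7.54%). The median log2 ratio over the genes was 4.13 for CPCC over mESC, 4.51 for CB over mESC and 0.74 for CB over CPCC, beside -0.02, 0.13 and 0.14 over all genes.

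**Figure D1:**
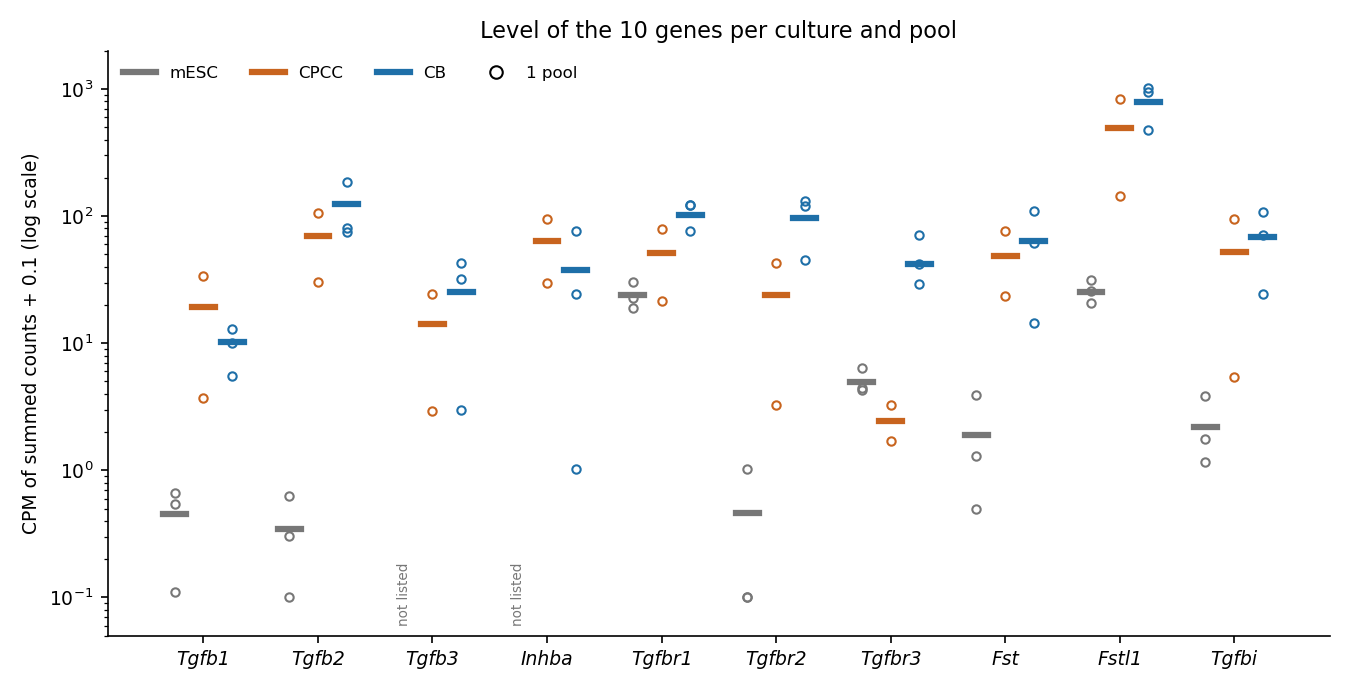
Level of each gene in CPM of summed counts, with 0.1 added for the logarithmic axis, in mESC (grey), CPCC (orange) and CB (blue). Thick bars show the culture and open circles its pools. Tgfb2 stood at 0.24 CPM in mESC, 69.6 in CPCC and 124 in CB, and the CPCC pools lay far apart for most genes.

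Of the 2 ligand genes listed in mESC, Tgfb2 (chromosome 1, 186622792 to 186705989, GENCODE on GRCm38) differed more from mESC than Tgfb1. It had 0.52, 0.20 and 0 CPM in the 3 mESC pools, 30.3 and 106 CPM in the CPCC pools, and 74.5, 80.0 and 187 CPM in the CB pools. No CPCC or CB pool overlapped the mESC pools, while the CPCC and CB pools overlapped each other. In mESC pool 3, 0 of 48 cells had a count, which allows a share of up to 6.25% of cells. Such limits after a count of 0 are 3 cells over the number of cells. The log2 ratio was 5.83 for CPCC over mESC and 6.65 for CB over mESC. Tgfb2 was detected in 2.79% of mESC cells (95% Clopper-Pearson interval 1.03 to 5.97), 34.3% of CPCC cells (27.3 to 41.8) and 52.6% of CB cells (45.9 to 59.2). These and all other intervals cover counting error only, as reads that carry no molecular identifier can be copies of the same molecule.

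Tgfb1 (chromosome 7, 25687002 to 25705077) was below 15 CPM in every pool except 1 of CPCC. Its pools had 0.56, 0.44 and 0.01 CPM in mESC, 3.60 and 33.6 CPM in CPCC, and 5.47, 12.7 and 9.89 CPM in CB. The 3 CB pools lay between the 2 CPCC pools, so the lower level of CB (10.2 CPM against 19.1, log2 ratio -0.85) was within their spread. A single CPCC cell at 837 CPM held 16.3% of the Tgfb1 counts of its culture. Tgfb1 was detected in 6.98% of mESC (3.96 to 11.2), 38.9% of CPCC (31.6 to 46.5) and 29.7% of CB cells (23.9 to 36.1).

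Tgfb3 (chromosome 12, 86056745 to 86079041) and Inhba (chromosome 13, 16011851 to 16031621) had no entry in mESC. Each table held only genes that reached at least 1 count in some cell, so a gene with no entry has no measured value and no ratio was formed. Tgfb3 had 2.81 and 24.5 CPM in the CPCC pools and 32.0, 2.89 and 43.0 CPM in the CB pools. Inhba had 29.4 and 95.3 CPM in the CPCC pools and 24.2, 0.92 and 76.3 CPM in the CB pools. Among the CB pools both genes were lowest in pool 2, the pool with the fewest fibroblast markers (509 CPM against 14637 and 15728) and the most endothelial markers (1393 CPM against 98.1 and 58.1). In the 55 cells of that pool outside a set of 23 with endothelial markers, described below, Tgfb3 had 3.93 CPM and Inhba 1.25 CPM. What made both genes low in that pool was not tested. Tgfb3 overlaps Ttll5, and Inhba, Tgfb2 and Fst overlap antisense genes. Tgfbr3 overlaps 4 gene models, 3 of them on its own strand. Whether the counting used strand is not stated, so reads of such pairs cannot be told apart.

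The kinase receptors differed in where they began. Tgfbr1 (chromosome 4, 47353222 to 47414931), the type I receptor, was already detected in 58.1% of mESC cells (51.2 to 64.8), 65.1% of CPCC cells (57.6 to 72.2) and 64.7% of CB cells (58.1 to 70.8). Its pools had 30.2, 22.6 and 18.8 CPM in mESC, 21.4 and 78.6 in CPCC, and 121, 122 and 75.9 in CB. The lower CPCC pool lay inside the mESC range, and all CB pools were above it. The log2 ratio of CPCC over mESC, 1.06, was -0.15 without CPCC pool 2. CB over CPCC was 0.99, just under the limit.

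Tgfbr2 (chromosome 9, 116084293 to 116175360), the type II receptor that binds the ligand first, was nearly missing in mESC. It had 0, 0.93 and 0 CPM in the mESC pools, and 1 cell held 91.4% of its 128 counts. A count of 0 allows up to 3.33% of the 90 cells of pool 1 and 6.25% of the 48 cells of pool 3. The CPCC pools had 3.18 and 42.8 CPM and the CB pools 120, 44.7 and 132 CPM. The order mESC, CPCC, CB held for all pools, with log2 ratios of 4.18 for CPCC over mESC and 1.97 for CB over CPCC. Both depended on CPCC pool 2, without which they were 1.61 and 4.53, and were 2.85 and 3.30 without 18 cells of that pool with macrophage markers, described below. The share of cells was 1.40% (0.29 to 4.02), 29.1% (22.5 to 36.5) and 54.7% (48.1 to 61.3).

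Tgfbr3 (chromosome 5, 107106570 to 107289629) had its lowest level in CPCC. Its mESC pools had 4.16, 4.33 and 6.26 CPM, its CPCC pools 3.17 and 1.61 CPM, and its CB pools 71.2, 29.0 and 41.6 CPM. The pools of the 3 cultures did not overlap. CB was higher than CPCC by a log2 ratio of 3.68, the largest of the 10 genes in that comparison, and higher than mESC by 2.88. CPCC lay below mESC by -0.80, short of the limit, and by -1.24 without the highest cell of each culture, because 1 cell held 49.8% of its 652 CPCC counts. It was detected in 20.5% of mESC (15.3 to 26.5), 8.57% of CPCC (4.88 to 13.7) and 40.5% of CB cells (34.1 to 47.1).

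Fstl1 (chromosome 16, 37776873 to 37836514) had the highest level per kilobase of exon in all 3 cultures, 6.70, 131 and 208 CPM per kb. Its pools had 25.8, 20.7 and 31.2 CPM in mESC, 143 and 830 CPM in CPCC, and 945, 473 and 1009 CPM in CB. The mESC pools lay below all others, and CPCC and CB pools overlapped. It was detected in 56.7%, 82.3% and 91.8% of cells, and the log2 ratios over mESC were 4.24 for CPCC and 4.90 for CB.

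Fst (chromosome 13, 114452290 to 114458951) was carried by few cells. The pools had 3.82, 1.20 and 0.40 CPM in mESC, 76.0 and 23.4 CPM in CPCC, and 60.8, 14.4 and 109 CPM in CB. It was the 1 gene besides Tgfbr3 with a higher level in CPCC pool 1 than in pool 2. A single CPCC cell at 1928 CPM held 29.1% of its counts, and 3 cells held most of them. The share of cells was 6.98%, 26.9% and 23.3%.

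Tgfbi (chromosome 13, 56609523 to 56639562) had 1.06, 1.67 and 3.76 CPM in the mESC pools, 5.34 and 95.2 CPM in the CPCC pools, and 70.9, 24.2 and 108 CPM in the CB pools. By ratio its CPCC pools differed more than those of the other 9 genes, and both lay above the mESC pools. It was detected in 9.77%, 27.4% and 34.1% of cells.

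**Figure D2:**
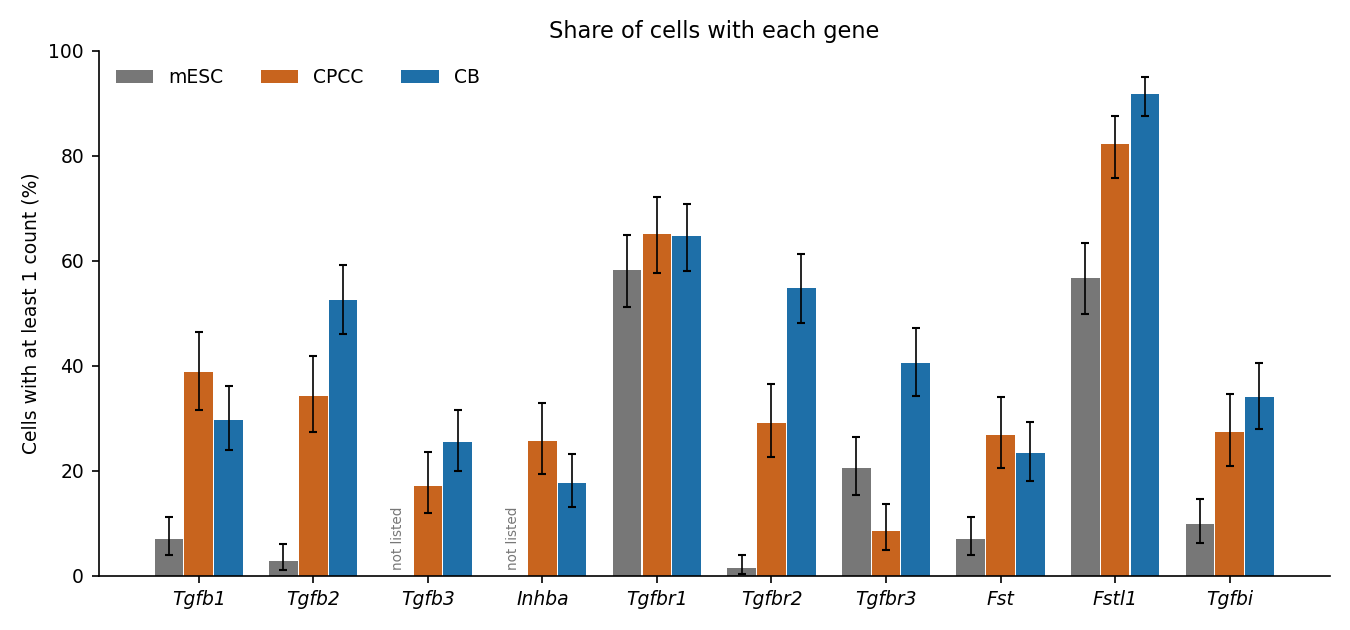
Share of cells with at least 1 count of each gene in mESC (grey, 215 cells), CPCC (orange, 175) and CB (blue, 232), with 95% Clopper-Pearson intervals. Tgfbr1 was detected at 58.1% to 65.1% in all 3 cultures, while Tgfbr2 went from 1.40% to 29.1% and 54.7%.

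Per kilobase of exon, which allows genes to be compared with each other, the order in CPCC after Fstl1 was Tgfbi (19.1 CPM per kb), Fst (17.2), Tgfb2 (13.4), Inhba (9.93), Tgfb1 (8.79), Tgfbr1 (7.95), Tgfb3 (4.14), Tgfbr2 (2.89) and Tgfbr3 (0.39). In CB it was Tgfbi (25.2), Tgfb2 (23.9), Fst (22.3), Tgfbr1 (15.9), Tgfbr2 (11.7), Tgfb3 (7.48), Tgfbr3 (6.92), Inhba (5.84) and Tgfb1 (4.68). In mESC, Fstl1 and Tgfbr1 (3.72 CPM per kb) led, and the other 6 listed genes were at or below 0.80 CPM per kb. Below Fstl1 the order differed between pools. In CPCC pool 1 Fst (26.8 CPM per kb) and Tgfb2 (5.83) came next and Tgfbi had 1.97, and in pool 2 Tgfbi (35.1) and Tgfb2 (20.4) came next and Fst had 8.26. In CB pool 2 Tgfbr1 (19.0) and Tgfb2 (15.4) came next, ahead of Tgfbi (8.93).

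The levels of CB and CPCC depended on the CPCC pool. With pool 1 of CPCC on its own, 8 of the 10 genes were higher in CB (24.96% of all genes). With pool 2 on its own, 3 were higher (16.1%) and 2 lower (6.10%). Tgfb1 and Inhba, highest in CPCC, were above it in CB when CPCC pool 2 was left out (log2 ratios of CB over CPCC 1.28 and 0.33). Over mESC, the CPCC ratios without that pool were 4.65 for Tgfb2, 2.45 for Fstl1 and 1.04 for Tgfbi, in place of 5.83, 4.24 and 4.09. Leaving out CB pool 2 gave 4 higher (18.0% of all genes) and 1 lower (11.9%). Without the 18 CPCC cells that carried macrophage markers, described below, 4 genes were higher in CB (18.6% of all genes), the other 2 being Tgfbr1 (log2 ratio 1.57) and Tgfbi (1.11), and the excess of CPCC over mESC for Tgfbr1 fell short of the limit (0.48). With DESeq2 size factors, 14.1% of all genes were higher and 9.90% lower in CB than in CPCC, and Tgfb1 joined as lower (-1.03).

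Detection in the same cell was set out next, because a cell needs both kinase receptors to respond to its own ligand. At least 1 TGF-beta ligand was detected in 8.84% of mESC, 54.3% of CPCC and 70.7% of CB cells, the mESC share resting on Tgfb1 and Tgfb2, as Tgfb3 had no entry there. Both Tgfbr1 and Tgfbr2 were detected in 1.40%, 24.0% and 34.5%. All 3 conditions together were met in 1 mESC cell, in 39 CPCC cells (22.3%, 16.4 to 29.2) and in 66 CB cells (28.4%, 22.7 to 34.7). With cells thinned to 400000 counts each (19, 15 and 22 shallower cells dropped), the shares were 0.51%, 20.6% and 24.8%. The CPCC share was 11.4% (9 of 79 cells) in pool 1 and 31.2% (30 of 96) in pool 2. The 18 macrophage-marker cells of that pool, described below, gave 14 of the 39 cells, and without them the share was 15.9% (10.6 to 22.6). The CB pools had 37.7%, 19.2% and 29.4%. Of the CPCC cells with both receptors 3 of 42 lacked a ligand, and 14 of 80 in CB. Chambers that took up more than 1 cell were recorded in the study but are not marked in the tables, and their part in shared detection was not tested.

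Inhba was set beside its antagonist gene Fst. In CPCC, 20 cells had both, 25 had Inhba without Fst and 27 had Fst without Inhba. In CB the numbers were 15, 26 and 39. The correlation between both genes was 0.27 over CPCC cells (0.32 and 0.27 in the pools) and 0.16 over CB cells (-0.11, 0.08 and 0.32). In mESC, 15 cells had Fst.

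The relation to Acta2 over CPCC cells was described next. Acta2 (chromosome 19, 34241090 to 34255590) had no entry in mESC and stood at 4176 CPM in CPCC (2875 and 5394 in the pools) and 833 CPM in CB (1813, 670 and 558). It had at least 1 count in 85.1% of CPCC cells but at least 10 in 45.1%. Spearman correlations of CPM over the 175 CPCC cells passed 0.3 for 7 of the 9 genes detected in at least 10% of cells, against 10.1% of 15406 genes. Their median was 0.36 (all genes -0.04). The cells share 1 culture and 2 pools, and Acta2 itself correlated with depth at 0.07.

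Tgfb2 followed Acta2 most closely, with 0.68 over all cells and 0.54 and 0.73 within the pools. Inhba came next with 0.65 (0.51 and 0.72), then Fstl1 with 0.56 (0.43 and 0.71) and Tgfb3 with 0.52 (0.33 and 0.60). Tgfbr2 (0.36), Tgfbi (0.32) and Tgfb1 (0.32) passed the limit over all cells but not within pool 2, where they had 0.20, 0.28 and 0.19. Within pool 1 Tgfbr2 had 0.39 and Tgfb1 0.31, and Tgfbi did not pass there either (0.19). Only 4 of the 9 genes passed within pool 2 (13.1% of all genes), and 6 within pool 1 (8.6% of all genes). Tgfbr1 (0.21) and Fst (0.19) stayed below the limit, and Tgfbr3, detected in too few cells to be counted, had 0.08.

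**Figure D3:**
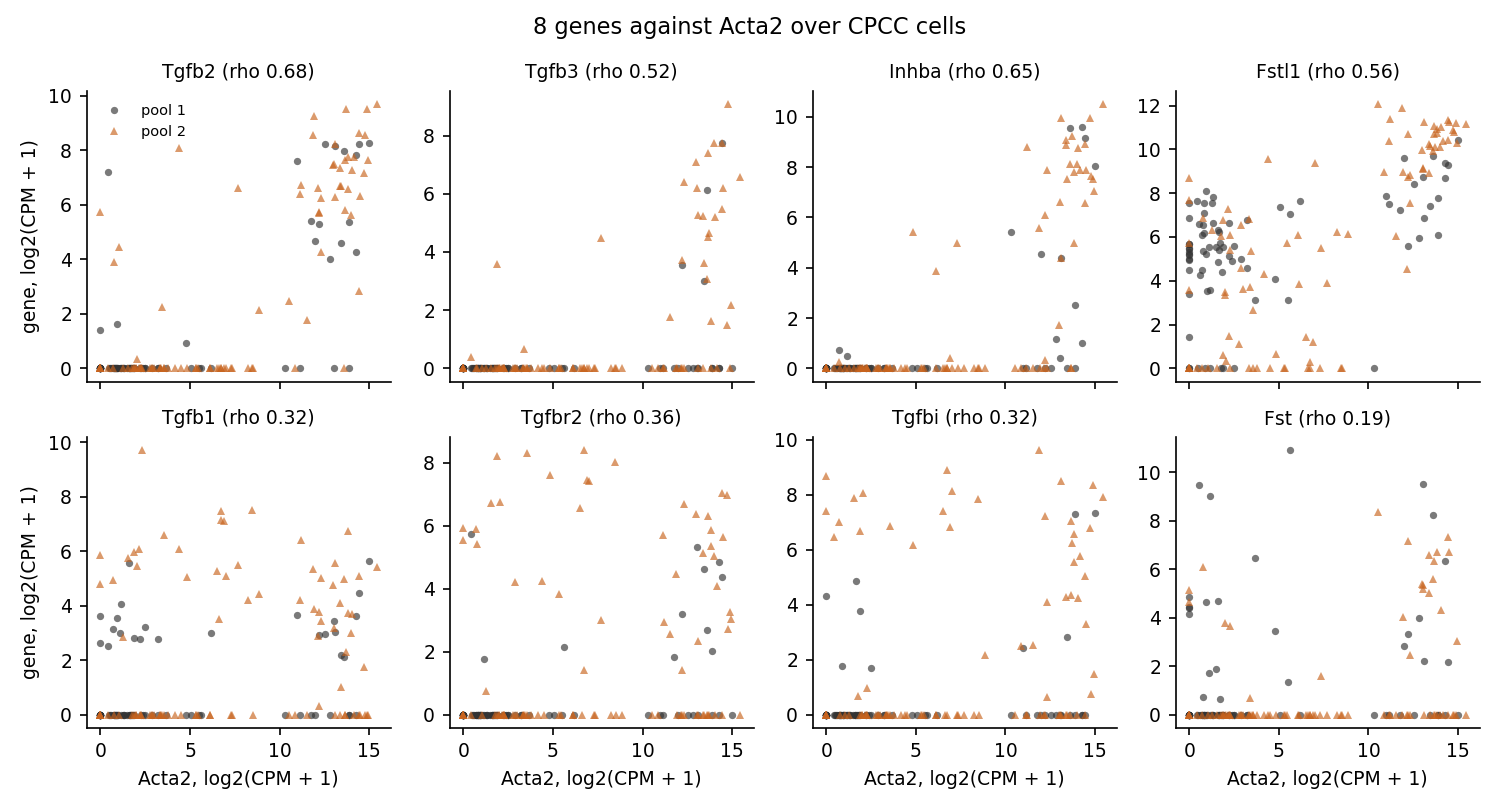
Each point is a CPCC cell (79 of pool 1, black circles, and 96 of pool 2, orange triangles), with Acta2 on the horizontal and the gene on the vertical axis, both as log2(CPM + 1). Tgfb2, Tgfb3 and Inhba were mostly at 0 outside the Acta2-high cells, whereas Tgfb1, Tgfbr2 and Tgfbi had a second set of high cells at low to middle Acta2, mostly of pool 2.

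Cells were then cut into tertiles by Acta2. The lowest 58 cells had 0 to 2.19 CPM of Acta2, the middle 58 had 2.32 to 163 CPM, and the upper 59 had 205 to 44570 CPM, of which 18 came from pool 1 and 41 from pool 2. From the lowest to the upper tertile, Tgfb2 went from 5.18 and 9.52 to 169 CPM, Inhba from 0.03 and 1.94 to 163 CPM, Tgfb3 from 0.01 and 0.06 to 36.3 CPM, and Fstl1 from 57.1 and 82.7 to 1184 CPM. The upper tertile thus held 99.8% of all Tgfb3 counts, 99.1% of Inhba, 93.6% of Tgfb2 and 91.5% of Fstl1. The same tertile, 59 of 175 cells, held 30.9% of Tgfb1, 35.5% of Tgfbr2 and 36.0% of Tgfbr1. These genes were highest in the middle tertile at 40.5, 44.9 and 83.4 CPM. That order was one of pool 2, with 63.8, 71.7 and 119 CPM in the middle and 19.1, 28.1 and 55.0 CPM in the upper tertile. In pool 1 the upper tertile was higher, at 7.15, 8.06 and 31.7 CPM against 1.86, 0.24 and 23.3 CPM. By share of cells the upper tertile was highest as well, at 62.7%, 50.8% and 79.7% against 31.0%, 22.4% and 56.9% in the middle tertile.

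Macrophage markers moved with that second pattern. A set of 18 CPCC cells, all of pool 2, had at least 5 of the 8 macrophage markers (C1qa, C1qb, C1qc, Fcrls, Csf1r, Tyrobp, Cd68 and Adgre1) at 10 or more counts, and 3 cells of the culture lay at 4 or 5 markers. This limit was set after the values had been seen. The 18 cells held 67.6% of Tgfbr2, 48.0% of Tgfb1, 47.9% of Tgfbi and 42.7% of Tgfbr1 counts of the culture, beside 13.2% of all its counts, but 0.53% of Tgfb2, 1.86% of Tgfb3 and 2.18% of Inhba counts. Fst and Tgfbr3 had no count in any of the 18, which allows up to 16.7% of such cells. In these cells Tgfbr2 ranged from 0 to 337 CPM with a median of 99.3, and Tgfb1 from 0 to 180 CPM with a median of 40.1.

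The upper Acta2 tertile without those cells left 55 cells. Here Tgfb2 stood at 177 CPM (85.5% of cells), Inhba at 170 CPM (65.5%), Tgfb3 at 37.5 CPM (43.6%) and Fstl1 at 1222 CPM (96.4%), while Tgfbr2 stood at 18.2 CPM and Tgfb1 at 12.6 CPM. The remaining 102 cells had Tgfb2 at 8.79 CPM, Inhba at 0.03, Tgfb3 at 0.04 and Tgfbr2 at 2.05 CPM. Fst had 52.7 CPM in them and 61.1 CPM in the Acta2-high cells, and it was detected in 22.5% and 43.6%. Without the cell at 1928 CPM, which was 1 of the 102, it had 24.8 CPM in them. With that cell, which is of pool 1, the 102 cells had 70.9 CPM in pool 1 against 91.2 CPM in the Acta2-high cells. In pool 2 the values were 4.83 and 46.4 CPM. Without the 18 cells, the correlation with Acta2 was 0.69 for Tgfb2 and 0.67 for Inhba, and 0.48 for Tgfbr2.

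**Figure D4:**
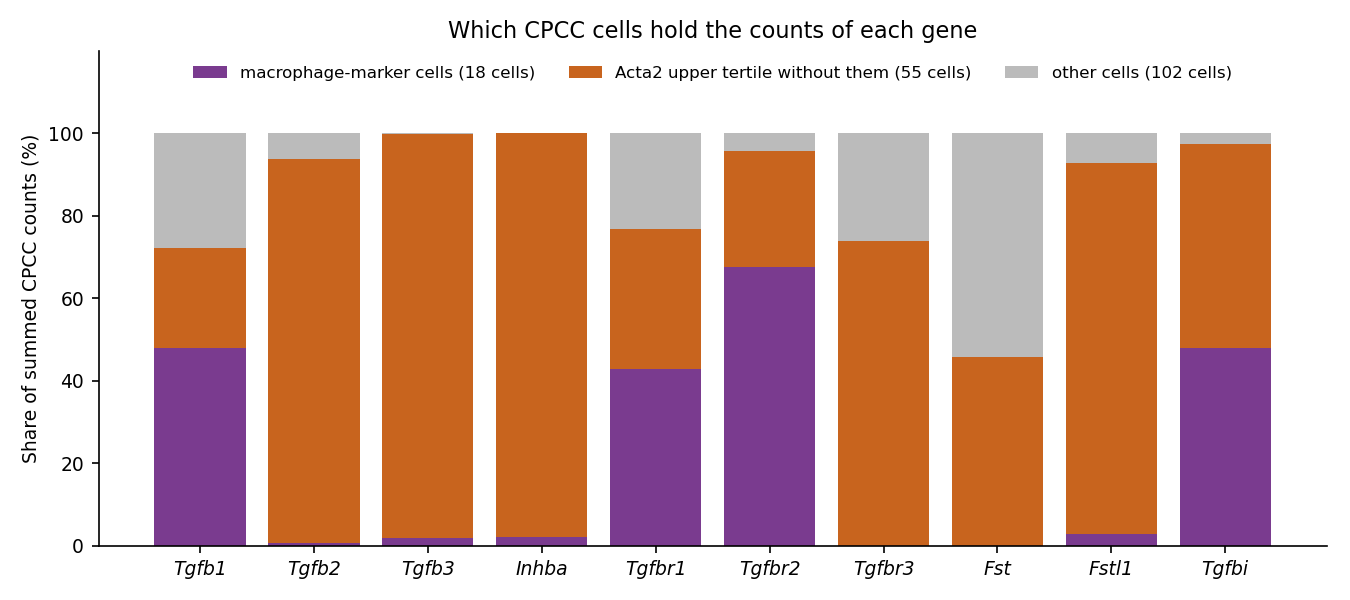
Share of the summed CPCC counts of each gene held by the 18 cells with macrophage markers (purple), by the 55 other cells of the upper Acta2 tertile (orange) and by the other 102 cells (grey). Tgfb2, Tgfb3, Inhba and Fstl1 lay mostly in the orange part, and 67.6% of Tgfbr2 in the purple part. The grey part of Fst (54.3%) fell to 35.5% without 1 cell.

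Pluripotency markers ran against most of the genes in CPCC. In the 83 CPCC cells with at least 5 pluripotency markers at 10 or more counts, Tgfb2 had 5.01 CPM against 123 CPM in the other 92, Tgfbr2 1.82 against 41.7, and Fst 4.59 against 85.3. Of the 83 cells 60 came from pool 1 and 23 from pool 2, and the other 92 included macrophage-marker cells. Within the pools Tgfb2 had 4.999 against 110 and 5.05 against 126 CPM, Tgfbr2 1.43 against 8.71 and 3.51 against 50.6 CPM, and Fst 4.48 against 302 and 5.09 against 27.0 CPM. The 302 CPM included the cell at 1928 CPM. Tgfbr1 differed less, with 20.2 against 76.3 CPM and detection in 57.8% against 71.7% of cells. Correlations with the summed pluripotency list ranged from -0.56 (Tgfb2) to 0.00 (Tgfbr3).

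The genes were next compared with the marker lists within CB. A fibroblast set of 108 CB cells (at least 5 of 9 markers at 10 or more counts) held 92.3% of Tgfb3, 91.5% of Tgfbi, 78.8% of Inhba, 76.7% of Fstl1 and 75.5% of Tgfb2 counts, and 73.5% of Tgfbr2, 63.3% of Tgfbr1 and 61.0% of Tgfbr3 counts. It held 46.3% of Tgfb1 and 45.9% of Fst counts, near its share of all counts of the culture (47.9%), but the pools differed in direction. Tgfb1 was higher in the set in pools 1 (7.04 against 0.99 CPM) and 3 (13.1 against 3.84 CPM). In pool 2 Tgfb1 was lower in the set (1.77 against 14.9 CPM). Fst was lower in the set in pools 1 (16.7 against 187 CPM) and 3 (88.0 against 149 CPM). In pool 2 Fst was higher in the set (36.4 against 10.05 CPM). Of the 108 cells 10 came from pool 2, where Tgfb3 had 3.40 CPM in them and 2.79 CPM in the other 68 cells. Tgfbr2 was lower in them there (3.68 against 52.9 CPM), and Tgfbr3 was lower in the fibroblast set of pools 1 (62.6 against 95.7 CPM) and 2 (12.8 against 32.2 CPM). Tgfbi had 130 CPM in them and 11.1 CPM in the other cells, and Fstl1 1261 and 353 CPM. Fstl1 was detected in all 108. Its correlation with the fibroblast list was 0.68 (0.68, 0.35 and 0.75 in the pools), and that of Tgfb3 was 0.43.

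A set of 23 CB cells, all of pool 2, carried at least 5 of 10 endothelial markers. It held 43.9% of the Tgfb1 counts of CB, beside 10.3% of all counts of the culture. Tgfb1 had 43.3 CPM in the 23 cells against 6.37 CPM in the other cells, and was detected in 91.3% of the 23. Tgfbr2 (158 against 88.5 CPM), Tgfbr3 (67.0 against 39.3 CPM) and Tgfbr1 (118 against 100 CPM) were present too. Tgfb3, Inhba and Fst had no count in any of the 23 cells, which allows up to 13.0% of such cells, and Tgfbi had 3.44 CPM. Within pool 2, the other 55 cells had Tgfb1 at 1.73 CPM (18.2% of cells), Tgfbr2 at 3.91 CPM and Tgfbr3 at 15.3 CPM, below the 23 cells, and Tgfbr1 at 123 CPM. The correlation with the endothelial list within that pool was 0.50 for Tgfb1, 0.50 for Tgfbr2 and 0.41 for Tgfbr3. In the 72 CB cells with epithelial markers, Fstl1 had 318 CPM against 1024 CPM in the rest, Tgfbi 14.5 against 95.3, and Inhba 3.61 against 54.2. Within pool 2 Inhba went the other way, at 2.85 CPM against 0.01 CPM, with 2 and 1 cells detected.

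**Figure D5:**
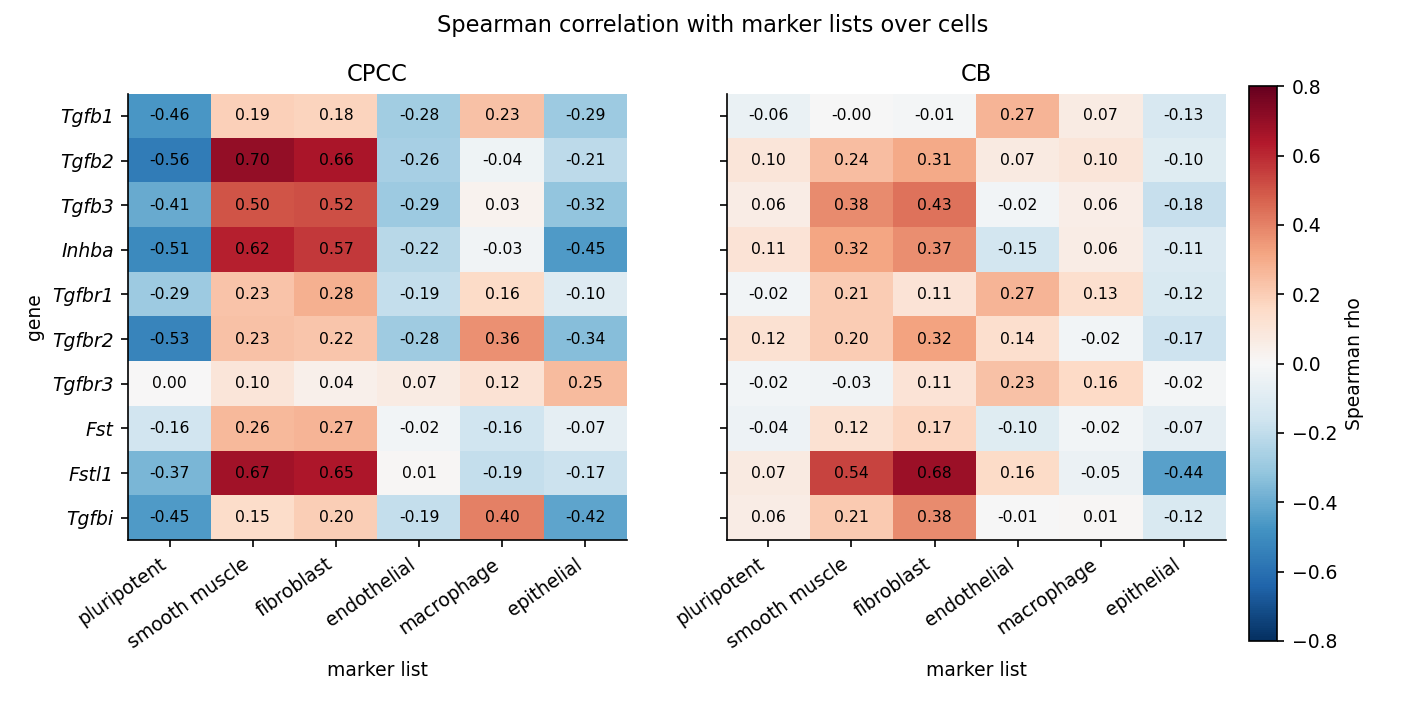
Spearman correlation of each gene's CPM with the summed CPM of 6 marker lists over the 175 CPCC cells (left) and the 232 CB cells (right), from blue (negative) to red (positive). In CPCC, Tgfb2, Tgfb3, Inhba and Fstl1 went with smooth muscle and fibroblast markers, and Tgfbr2 (0.36) and Tgfbi (0.40) with macrophage markers. Acta2 is 1 of the 7 smooth muscle markers, and without it the correlations of the first 4 genes with that list were 0.70, 0.50, 0.57 and 0.69.

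Correlations between the genes differed by pair. None were computed for pairs over all genes, so the counts of pairs given here have no background share. Over CPCC cells the correlation between 2 of the 10 genes had a median of 0.23 over the 45 pairs, and 12 pairs passed 0.3. The highest were Tgfb2 with Fstl1 (0.68), Tgfb2 with Inhba (0.61), Tgfb2 with Tgfb3 (0.55), Tgfb3 with Inhba (0.54) and Inhba with Fstl1 (0.53). The highest pairs without any of these 4 genes were Tgfbr2 with Tgfbi (0.52) and Tgfb1 with Tgfbr2 (0.48). The first had 0.09 in pool 1 and 0.57 in pool 2, which held all macrophage-marker cells, and the second 0.29 and 0.51. Over CB cells the median was 0.14, and 5 pairs passed 0.3, all of them with Fstl1 as a partner.

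The genes most like each member over CPCC cells were found among 12073 genes detected in at least 25% of them. Tgfb2 was nearest to Bmp1 (0.82), which encodes a procollagen protease, Ccn4 (0.82) and the collagen gene Col12a1 (0.80), all at 0.76 or above in both pools. Inhba was nearest to Ehd2 (0.74), Ccn4 (0.72) and the fibrillin gene Fbn1 (0.70). Fstl1 was nearest to Ppic, Lhfp and the matrix gene Sparc (0.75 to 0.73). Tgfbr2 was nearest to Rnase4 (0.69), the myeloid kinase gene Lyn (0.66) and the interferon-gamma receptor gene Ifngr1 (0.66), and Tgfbi to Rnase4 (0.61), Igf1 (0.59) and Plekho1 (0.58). Those of Tgfbi came from pool 2 (0.69, 0.63 and 0.61), with 0.22, -0.08 and 0.26 in pool 1. Tgfb1 was nearest to Arpc2 (0.64), Gm5492 (0.59) and Tmsb4x (0.58), of which Arpc2 and Tmsb4x encode actin regulators. Tgfbr1 (Zdhhc20, Stx7 and Jun, 0.46 to 0.45) and Fst (Pdia5, Gpc4 and Ddah1, 0.41 to 0.38) had no close neighbour.

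Over CB cells, among 9730 genes, likeness was weaker. It was highest for Fstl1, whose nearest genes were Col1a2 (0.70), Lgals1 (0.69) and Col5a1 (0.68). Tgfbr2 was nearest to Sparc (0.50), Ppic (0.48) and Col6a2 (0.47), and Tgfb3 to Col12a1 (0.49), Lox (0.46) and Col1a2 (0.45). Within the pools Tgfbr2 with Col6a2 had 0.55, 0.002 and 0.42, and Tgfb3 with Col12a1 had 0.32, 0.03 and 0.58. Tgfb3 with Lox had no value in pool 2. Tgfbi was nearest to Pdgfrb (0.43), Col5a1 (0.42) and Mfap4 (0.41). For Tgfb1 (Msn, Sh2b3 and Pfn1), Tgfb2 (Zbtb20, Fstl1 and Scarf2), Tgfbr1 (Hmgb1-ps1, Eif2s2 and Itga9) and Tgfbr3 (Litaf, Sash1 and Pdgfra), the highest correlation was 0.39.

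The wider pathway was described with a list of 43 genes for latency and activation, other receptors, activin family ligands and binding proteins, intracellular proteins and targets. CPCC exceeded mESC for 16 of the 33 genes listed in both (13.4% of all genes) and was lower for none (6.38%). By role, 4 of 6 latency genes, 2 of 6 receptors, 2 of 4 ligands and binding proteins, 2 of 9 intracellular genes and 6 of 8 targets were higher. The targets Tagln (1214 CPM against 1.21, log2 ratio 9.10) and Col1a1 (139 against 1.11, 6.05), which encode an actin-binding protein and a collagen chain, were the highest. Of the signal transducers, Smad3 passed the limit (23.3 against 9.30 CPM, 1.24) through pool 2 of CPCC, with 6.02 and 39.4 CPM in the CPCC pools and 8.07, 6.70 and 14.1 CPM in the mESC pools. Smad2 (71.8 against 57.8 CPM, 0.31) and Smad4 (56.9 against 55.5 CPM, 0.04) lay under the limit. These 3 were picked after their values had been seen. Tagln belongs to the smooth muscle markers as well, and Col1a1 and Postn to the fibroblast markers, so these targets cannot be told apart from cell type.

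CB exceeded mESC for 24 of 34 genes (24.9% of all genes) and was lower for none (11.3%). Among genes detected in at least 25% of CB cells the highest were Col1a1 (1000 against 1.11 CPM, 8.89), Tagln (7.56) and the latency gene Ltbp3 (34.9 against 0.29 CPM, 4.79). Here 6 of 7 receptors were higher. Between CB and CPCC, 18 of 40 genes were higher (17% of all genes) and 3 lower, a share near that over all genes (7.54%). Col1a1 (2.84), Ltbp3 (2.40) and Postn (478 against 100 CPM, 2.24), which encodes the matrix protein periostin, were the highest among genes detected in at least 25% of CB cells. The 3 lower genes were targets and included Tagln (417 against 1214 CPM, -1.54) and Ccn2 (186 against 447, -1.26), the latter encoding a matrix-associated growth factor. Without CPCC pool 2 the counts of CPCC over mESC were 8 higher (8.32% of all genes) and 2 lower, the latter near the share of all genes (6.03%). Without CPCC pool 1 the number of genes lower in CB than in CPCC was 7 (6.10% of all genes). Acvr1c had no entry in CPCC, Mstn and Fstl5 had none in any table, and Lrrc32, Itgb6, Itgb8, Thbs1, Inha, Fstl4 and Postn had none in mESC.

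Over CPCC cells 15 of 35 genes of this list passed a correlation of 0.3 with Acta2 (10.1% of all genes), with a median of 0.26. Tagln (0.72), Col1a1 (0.70), Thbs1 (0.69), which encodes the TGF-beta activator thrombospondin-1, and the integrin gene Itgav (0.59) were among the highest. The latent TGF-beta binding protein genes diverged, with Ltbp1 at 0.55 (0.42 and 0.61 in the pools) and Ltbp4 at -0.42 (-0.43 and -0.03). Of these, Thbs1, Itgav, Ltbp1 and Ltbp4 were picked after their values had been seen.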

How the data were processed

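Single-cell RNA-seq libraries of 3 cultures were compared (215 mESC, 175 CPCC and 232 CB cells). The authors aligned reads with STAR 2.7 in Partek Flow to GRCm38 (mm10 in the submitters' processing notes) and deposited 1 gene table per culture. The authors deposited the mESC and CB values as estimated counts per gene, unscaled, and 26.4% and 27.4% of those above 0 were not whole (tolerance 0.001). The CPCC values were deposited as whole counts. The counting model and its use of strand are not given in the sources used here, so ratios to CPCC cross tables that may have been counted differently. For CPCC, 208 rows with no gene (and no values) and 23 symbols turned into dates (0.139% of counts) were left out, as were 2 empty columns that match no sample. Each table was assigned to the sample whose culture its name gives. Column names shared between tables numbered 0.

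Counts were summed per culture and scaled to CPM. Ratios are log2 of (CPM + 1), which understates changes of low genes, and a size of 1 was called higher or lower. A cell had a gene at 1 or more counts. Summed counts carry exact Poisson and shares exact Clopper-Pearson 95% intervals, for counting error only. Values were rounded for intervals and thinning (400000 counts per cell). Correlations are Spearman's. With 1 sample per group no p-value is given. No doublet caller was run, and no cell was removed. Alternatives were TMM factors (edgeR 4.0.16), DESeq2 1.42.0 size factors, equal weight per cell, pseudocounts of 0.1 and 10 CPM, genes with at least 1 CPM, a cell filter (100000 counts, 20% mitochondrial), no highest cell, and leaving out each pool. Ratios and correlations were tested on simulated data. Gene positions and exon lengths came from GENCODE vM21.

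The 10 genes, the pathway and marker lists and the limits were chosen with earlier results of these data known. Named are the 10 genes, Acta2, per pair the 3 highest and 3 lowest pathway genes past the limit and detected in at least 25% of cells of the higher culture, pathway genes with no entry, and the 3 genes nearest to each member detected in at least 25% of cells. Genes added to these are named as such. One pathway gene that this rule names is not reported here. Skil and Smad7 were counted as targets. The cell sets defined by 5 or more markers, the counts without macrophage-marker cells, the comparisons within pools, the smooth muscle list without Acta2 and the ranges without 1 cell were added after seeing the data. Python 3.11.15 with numpy 2.4.6, pandas 2.3.3 and scipy 1.17.1, and R 4.3.3 were used.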

Additional observations from a re-analysis of the deposited data

How the results depend on the processing

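No paired analysis was possible because each culture is 1 sample and pools carry no shared number. Of 175 recomputed counts of genes, 152 stayed within 1.5 times the reported one and 23 did not. Of the single-gene levels, shares, ratios and correlations, 405 recomputed values were counted as unchanged, 403 as moved and 1 as turned. Unchanged meant within the counting or sampling range of the reported value. For correlations with marker lists it meant a change of less than 0.1. With a pseudocount of 0.1 CPM, 1 gene in place of 0 was lower in CPCC than mESC (11.9% of all genes). The same held without the highest cell (6.67%) and without CPCC pool 1 (13.0%). With TMM factors, 1 gene in place of 0 was lower in CB than CPCC (9.82% of all genes). This also held with DESeq2 size factors (9.90%), the same weight for every cell (8.26%), without CB pool 2 (11.9%) and without CB pool 3 (7.47%). Without CPCC pool 1 the number was 2 (6.10%). A single gene of so few is near these shares. Those higher in CB than CPCC numbered 8 in place of 2 without CPCC pool 2 (24.96% of all genes). They numbered 4 without CB pool 2 (18.0%) and 4 without the macrophage-marker cells (18.6%). Of the pathway list, 9 genes were higher in CPCC than mESC with a pseudocount of 10 CPM (5.13% of all genes) and 8 without CPCC pool 2 (8.32%), in place of 16, and 2 were lower without that pool, near the 6.03% of all genes. In CB against mESC 1 was lower with DESeq2 size factors (14.7% of all genes) and without CB pool 3 (10.2%). In CB against CPCC 7 were higher with a pseudocount of 10 CPM (5.55% of all genes), in place of 18, and the 3 lower ones numbered 7 without CPCC pool 1 (6.10%), 1 without CPCC pool 2 (9.73%), 1 without CB pool 2 (11.9%) and 5 without CB pool 3 (7.47%). Within CPCC pool 2 on its own 4 genes passed the Acta2 limit (13.1% of all genes), in place of 7 (10.1%). Leaving out CPCC pool 2 turned the ratio of Tgfbr1 in CPCC over mESC to -0.15. Ratios of CB over CPCC under the limit turned as well, without CPCC pool 2 for Tgfb1 (1.28), Inhba (0.33) and Fst (-0.26), without CB pool 3 for Tgfb3 (-0.18), Fst (-0.72) and Tgfbi (-0.39), and without CPCC pool 1 for Fstl1 (-0.07) and Tgfbi (-0.47). The causes were not tested. For CB over mESC the direction held for all 8 genes under 14 of 14 alternatives each, with Tgfb1 at 0.96 as the lowest value. DESeq2 size factors moved the median of all genes from 0.14 to 0.02 in CB over CPCC and from 0.13 to 0.01 in CB over mESC. Low counts limit mESC most, where Tgfb1, Tgfb2 and Tgfbr2 rest on 124, 86 and 128 summed counts.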

Other observations

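The 5 CB cells with at least 5 cardiomyocyte markers at 10 or more counts all had Tgfbr1, from 44.5 to 290 CPM with a median of 221, and all had Fstl1 (392 to 791 CPM). Tgfbr2 had 37.7 CPM in them against 97.3 CPM in the other cells, and Tgfbr3 2.58 against 43.2 CPM. Of the 5 cells 4 came from pool 2 and 2 had Tgfbr2. Within that pool the 4 cells had Tgfbr2 at 46.9 CPM against 44.6 CPM in the other 74, and Tgfbr3 at 3.20 against 30.4 CPM. The 3 CB cells with macrophage markers had Tgfbr2 at 0, 310 and 341 CPM. Of these 3 cells, 2 came from pool 1 and 1 from pool 3. Within the 59 CPCC cells of the upper Acta2 tertile, the correlation with Acta2 was 0.64 for Inhba, 0.53 for Fstl1 and 0.50 for Tgfb2, and -0.12 for Tgfb1. These sets were chosen after the values had been seen, and cells of 1 culture are not replicates.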
